A study of Homo sapiens with 6 samples.

Results

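The urokinase system was read here as all probe sets that the platform annotation gives to PLAU, PLAUR, PLAT, SERPINE2 and SERPINB2, which made 8 of the 54613 probe sets tested and 4 of the 19775 genes. PLAUR had 3 of them, PLAU 2, SERPINE2 2 and PLAT 1, and each carried 1 symbol only. SERPINB2, which encodes plasminogen activator inhibitor 2, matched 0 probe sets and was not analysed here. The values come from 6 Affymetrix HG-U133 Plus 2.0 arrays, 3 labelled S153E-RKIP and 3 labelled control. All cells were of the 1833 subline of MDA-MB-231, a human breast cancer line, and 1833 is known for growing in bone. They grew in DMEM with 10% serum, penicillin and streptomycin. The S153E-RKIP cells had been transduced with a lentiviral vector for S153E-RKIP and kept in 0.5 µg/ml puromycin, by a protocol entered for all 6 samples that does not say how the control cells were kept. The series describes the control as vector control. RKIP binds Raf-1 and restrains MEK and ERK, and S153E-RKIP is described by the series as the stronger inhibitor of Raf-1. The labels do not give the promoter of the vector or say whether the cells were a pool or a clone. They number 3 biological replicates a group but not whether these were separate cultures, so the p-values rest on a spread that may be technical in part.

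Urokinase, the product of PLAU, is a serine protease that is secreted as an inactive precursor and binds the receptor encoded by PLAUR, a protein anchored to the cell surface by a lipid. Bound urokinase turns plasminogen into plasmin, which degrades fibrin and matrix proteins and activates other proteases, and serpins stop the activators by forming a covalent complex with them. The system is known in breast cancer for high levels in invasive tumours.

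On the arrays labelled S153E-RKIP, the transcript of the urokinase receptor rose 1.41-fold on the brightest of its probe sets. The transcript of urokinase had a mean 1.47-fold that of control, but it varied more between arrays and did not pass the test. The other activator, PLAT, and the inhibitor SERPINE2 had log2 differences of -0.065 and -0.0078. Of the 8 probe sets 2 were called, both of PLAUR, where 1.05% of all probe sets were called (limma, adjusted p under 0.05 over all probe sets). Of the 4 measured genes 1 was called, where 1.9% of all genes were. Levels are given as log2 RMA signals, and each difference is the S153E-RKIP mean less the control mean.

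The labels were checked against the introduced gene and against HMGA2, since the source name of the S153E-RKIP samples speaks of HMGA2 shRNA. PEBP1, which encodes RKIP, had a level of 11.66 ± 0.064 on the S153E-RKIP arrays and 11.76 ± 0.026 on the control arrays (SD, n = 3 each), a difference of -0.093 (limma adjusted p = 0.473). The sources used here do not say whether its probe sets read the introduced copy. For both genes only the brightest probe set was read, of 3 for PEBP1 and 9 for HMGA2. HMGA2 had a level of 9.77 ± 0.066 on the S153E-RKIP arrays and 9.79 ± 0.019 on the control arrays (SD, n = 3 each; adjusted p = 0.882). Every direction below therefore rests on the label S153E-RKIP. Markers of a mesenchymal breast cancer line (VIM, CD44, CAV1, AXL and ZEB1) were all above the median gene level of 6.64. Of 5 luminal markers PGR and FOXA1 were below it, and KRT19, GATA3 and ESR1 were above it at 11.19, 8.08 and 6.65. KRT19, an epithelial keratin, fell by 0.48 on the S153E-RKIP arrays (limma adjusted p = 0.00437). Of 6 endothelial and fibroblast markers PECAM1 and COL1A1 were above the median, and 0 were called. Of 7 measured blood cell markers 0 were above that median and 0 were called, although their mean level ran from 5.31 to 5.43 on the S153E-RKIP arrays and from 5.22 to 5.28 on the control arrays. Their part in the results was not tested.

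The brightest PLAUR probe set had levels of 11.07, 10.89 and 10.87 on the S153E-RKIP arrays, against 10.45, 10.39 and 10.51 on the control arrays. All S153E-RKIP values lay above all control values, and replicate 1 of S153E-RKIP was the highest. The log2 difference was 0.49 with an SE of 0.075 and a 95% confidence interval of 0.32 to 0.66 (limma adjusted p = 0.0189). The second brightest had levels of 10.67, 10.51 and 10.43 on the S153E-RKIP arrays, against 10.07, 10.04 and 10.07 on the control arrays. Here too the groups did not overlap, and the control arrays lay within an SD of 0.020. Its difference was 0.48 (SE 0.074, adjusted p = 0.0219), and from array to array the gap between the 2 probe sets stayed between 0.35 and 0.44.

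The dimmest PLAUR probe set behaved less evenly. It had levels of 8.47, 8.08 and 8.29 on the S153E-RKIP arrays, against 8.00, 7.96 and 8.08 on the control arrays. Replicate 2 of S153E-RKIP lay just below replicate 3 of control, so the groups overlapped. The log2 difference of 0.26 had a 95% confidence interval of 0.040 to 0.49 and did not pass the test (adjusted p = 0.308). In all, 4 of the 8 probe sets had groups that did not overlap, 2 of PLAUR and 2 of PLAU, where 17.1% of all probe sets did.

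**Figure D1:**
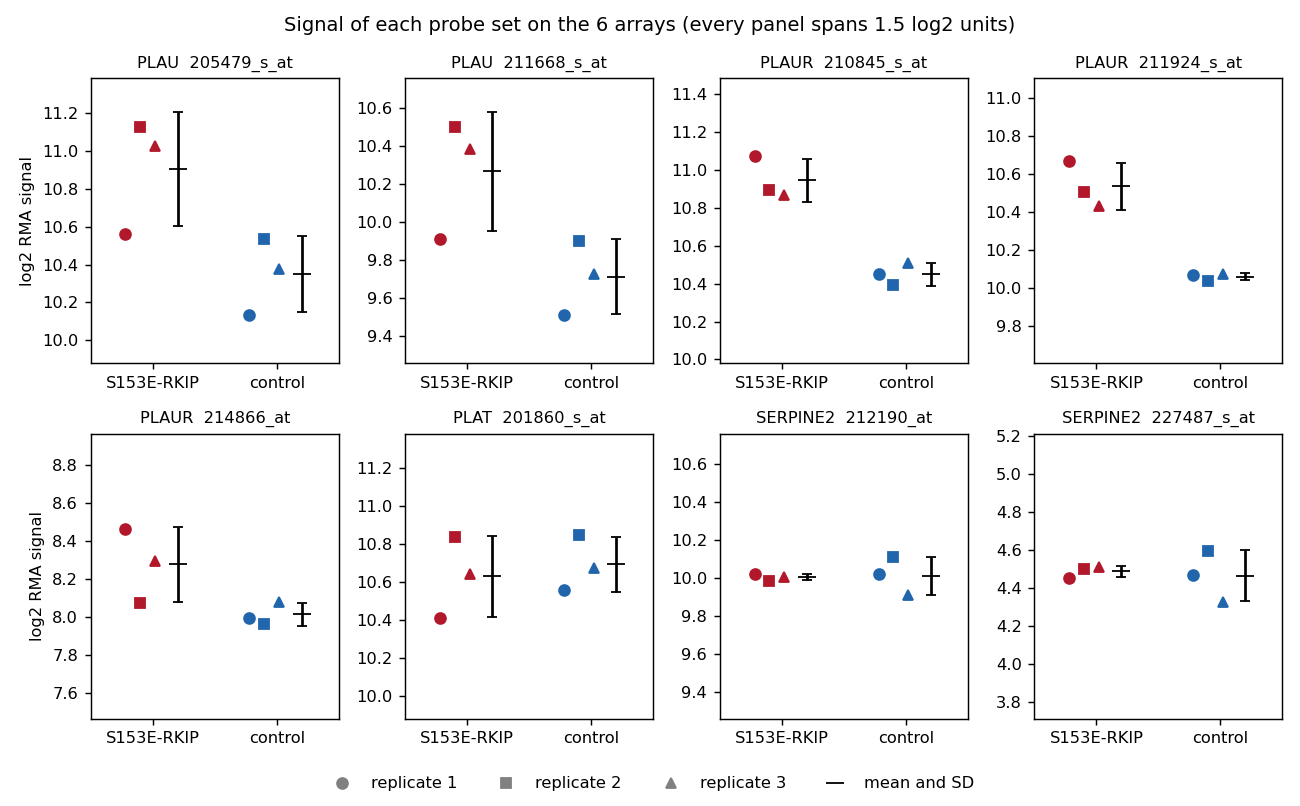
Log2 RMA signal of the 8 probe sets, S153E-RKIP arrays left (red) and control arrays right (blue), with marker shape for the replicate number and bars for mean and SD of the 3 arrays; the panels of a gene run from its brightest to its dimmest probe set, and each spans the same log2 range around its own middle. The groups are apart for both probe sets of PLAU and for the 2 brighter ones of PLAUR, while PLAU has the wider scatter within each group.

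The promoter of the called gene is shown with the AP-1 letters found in it, since AP-1 is the class of factor best known from reporter studies of PLAUR. The window holds the 250 bases before the RefSeq start of PLAUR on the minus strand, chr19:43670170-43670419 of GRCh38.p14, and lies outside the annotated gene. Capitals mark TGANTCA, searched on both strands.
PLAUR: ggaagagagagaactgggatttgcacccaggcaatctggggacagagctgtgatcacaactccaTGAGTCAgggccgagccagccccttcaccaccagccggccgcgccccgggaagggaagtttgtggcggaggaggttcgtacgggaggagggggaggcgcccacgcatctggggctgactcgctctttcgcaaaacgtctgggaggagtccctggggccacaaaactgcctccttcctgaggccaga

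The match starts at position -186 from the start of the gene, and 6.57% of the 35116 windows of that length in the RefSeq table hold such a match. The windows of PLAU and SERPINE2, 2 each, hold none of TGANTCA. The GC box GGGCGG, searched on both strands, is in 3 of these 4 windows and not in the other PLAU window, and 42.6% of all windows hold it. The stretch from -60 to -31 is shown for 1 window of each gene, with GC boxes in capitals. The window shown is the one with a GC box in that stretch, so a GC box in both was fixed by the choice. The stretches are thus no comparison of a gene with a higher mean and a gene with a difference near 0. The PLAU stretch lies on the plus strand at chr10:73911072-73911101 and the SERPINE2 stretch on the minus strand at chr2:224031509-224031538, both in GRCh38.p14. Unlike the PLAUR window, these 4 windows lie within the annotated gene.
PLAU: gagagggagGGGCGGcgccgGGGCGGgccc
SERPINE2: caatggctgtGGGCGGaggagggaggttct

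The PLAU stretch holds 2 of the 3 GC boxes of its window and the SERPINE2 stretch holds 1. None of the 4 windows of these genes and not the PLAUR window holds TATAAA, TGACGTCA or the NF-kB motif, which 10.7%, 1.65% and 5.21% of all windows hold. These are matches of letters and were set against no measurement of binding. Matches for PLAT are not reported here.

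The protease itself had the higher mean difference and the wider scatter. PLAU had levels of 10.56, 11.13 and 11.02 on the S153E-RKIP arrays by its brighter probe set, against 10.14, 10.53 and 10.38 on the control arrays. The groups did not overlap, but the lowest S153E-RKIP array, replicate 1, exceeded the highest control array, replicate 2, by little. The log2 difference was 0.55 with an SE of 0.15 and a 95% confidence interval of 0.21 to 0.90, and it had an unadjusted p of 0.00577 and an adjusted p of 0.176 in limma. By the dimmer probe set the levels were 9.91, 10.50 and 10.38 on the S153E-RKIP arrays, against 9.51, 9.90 and 9.72 on the control arrays. That probe set also had a difference of 0.55 (SE 0.16, adjusted p = 0.188).

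The scatter of PLAU was shared by its probe sets. Their gap ran only from 0.62 to 0.65 over the 6 arrays, so an array that was low by the first was low by the second. The SD within groups was 0.26 for each, which is larger than that of at least 98.4% of the 27306 probe sets above the median level. For the called probe sets of PLAUR the SD within groups was 0.090 and 0.088, close to the median of those probe sets, 0.089. Within each group both probe sets of PLAU were lowest on replicate 1 and highest on replicate 2. With the replicate number as a block PLAU was called in the gene fit (limma adjusted p = 0.0136). The replicate numbers are not known to pair the samples.

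**Figure D2:**
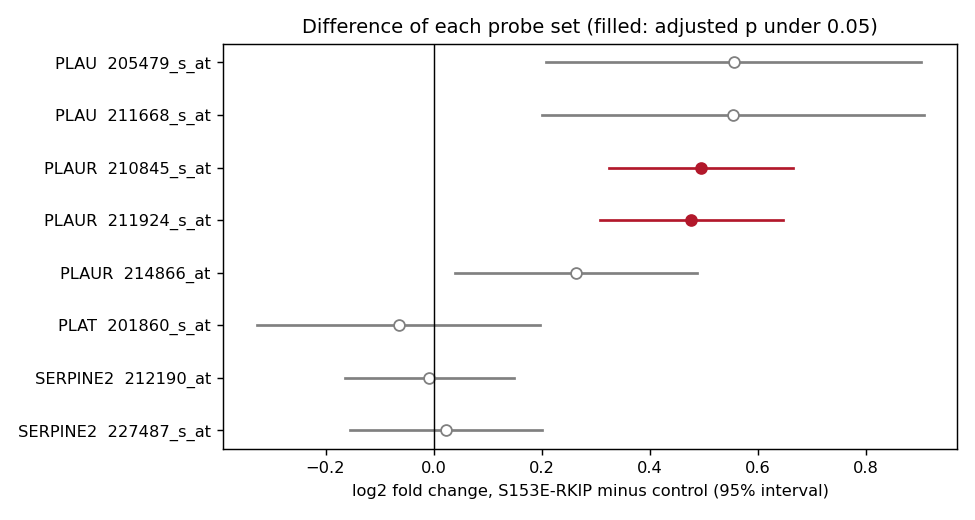
Log2 fold change of each of the 8 probe sets, S153E-RKIP minus control, with its 95% confidence interval from limma; filled red points passed an adjusted p under 0.05 over all probe sets. The intervals of PLAU are the widest and lie above 0, and those of PLAT and SERPINE2 include 0.

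Tissue plasminogen activator, encoded by PLAT, acts mainly on plasminogen bound to fibrin. Its probe set had levels of 10.41, 10.83 and 10.64 on the S153E-RKIP arrays, against 10.56, 10.85 and 10.67 on the control arrays. The groups overlapped across nearly their whole range. The log2 difference was -0.065 with a 95% confidence interval of -0.33 to 0.20 (adjusted p = 0.839), and the SD within groups, 0.18, exceeded that of 92.8% of the brighter probe sets.

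SERPINE2, or protease nexin 1, is a serpin that inhibits thrombin, urokinase and plasmin. By its brighter probe set it had levels of 10.02, 9.99 and 10.01 on the S153E-RKIP arrays, against 10.02, 10.11 and 9.91 on the control arrays. The S153E-RKIP values lay inside the range of the control values. The log2 difference was -0.0078 with a 95% confidence interval of -0.16 to 0.15 (adjusted p = 0.973), so a change of the size seen for PLAUR lies outside its interval. The dimmer probe set had a mean of 4.49 on the S153E-RKIP arrays and 4.46 on the control arrays. Both lie below the median of all probe sets, 5.62, where signal over background was not measured.

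The order of the differences by the brightest probe set of each gene was PLAU, PLAUR, SERPINE2 and PLAT. The neighbours PLAU and PLAUR have intervals that overlap, as do SERPINE2 and PLAT, and no difference between genes was tested. In the fit over 19775 genes PLAUR had an adjusted p of 0.0131 and ranked 162 by p-value, and PLAU had an adjusted p of 0.142 and ranked 877. The calls depended on single arrays. Both PLAUR probe sets stayed called without S153E-RKIP replicate 1, and 1 did without S153E-RKIP replicate 3, the second brightest. Neither did when any of the other 4 arrays was left out. For the PLAUR gene call the adjusted p was 0.0563 when S153E-RKIP replicate 2 was left out and 0.0912, 0.0752 and 0.0552 when control replicate 1, 2 or 3 was, which ended the call, while its log2 fold change stayed between 0.43 and 0.53. Without S153E-RKIP replicate 1 the log2 fold change of PLAU was 0.73 and passed the test (adjusted p = 0.0424).

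**Figure D3:**
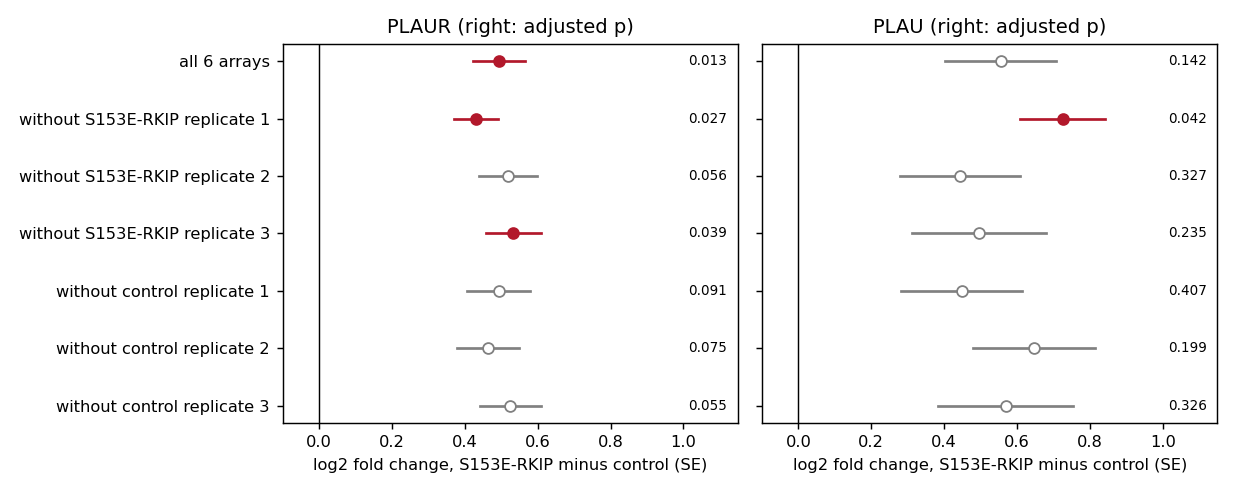
Log2 fold change of PLAUR and PLAU, S153E-RKIP minus control, in the gene fit with all 6 arrays and with each array left out, with SE as bars and adjusted p at the right; filled red points passed an adjusted p under 0.05. All values lie above 0, and PLAUR passed in 3 of the 7 fits drawn and PLAU in 1.

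The genes whose profiles over the 6 arrays lay closest to each member were found by the root mean square difference of control-centred log2 signals, among genes with a group mean above the median of all genes. For PLAUR they were HBEGF, a ligand of the EGF receptor (0.035), POU2F2, a transcription factor (0.039), and GALNT14, a glycosyltransferase (0.048). For PLAU they were CD74, the invariant chain of MHC class II (0.079), ADAM8, a membrane metalloproteinase (0.10), and PDE8A, a phosphodiesterase (0.11). All of these had a higher mean on the S153E-RKIP arrays, with log2 fold changes of 0.45 to 0.50 for the genes near PLAUR and 0.47 to 0.64 for those near PLAU. Over all eligible genes the median distance was 0.38 from PLAUR and 0.47 from PLAU. The closest genes to PLAT were KCNN4, ERRFI1 and BNIP3 and to SERPINE2 GPR153, ZNF783 and UBQLN4, with distances of 0.039 to 0.047 and 0.018 to 0.027. The distance keeps the difference between groups, so the similar fold changes and small distances follow from how these genes were chosen. The likeness describes 6 arrays that share preparation and normalisation, and it was not tested.

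**Figure D4:**
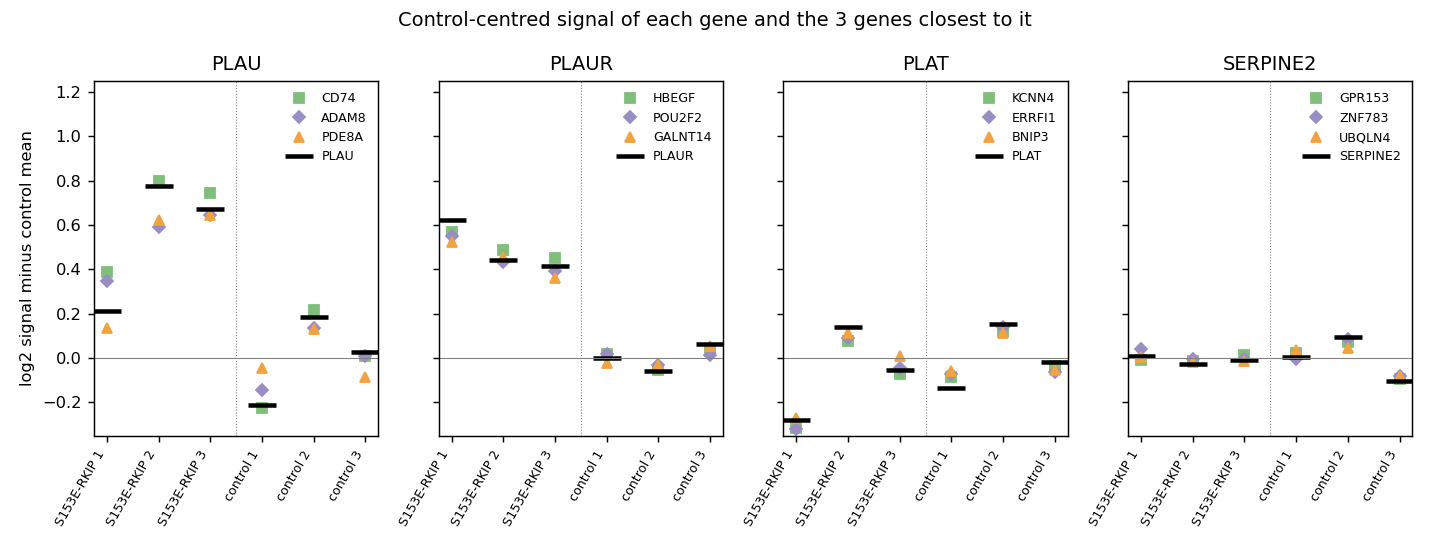
Log2 signal minus the control mean on each array for the 4 member genes (black bars) and the 3 genes closest to each (coloured points), S153E-RKIP arrays left of the dotted line and control arrays right of it. PLAUR and its neighbours are higher on all S153E-RKIP arrays, which for the neighbours follows from the choice by distance. PLAU and PLAT are both lowest on replicate 1 within each group.

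The rest of the pathway was read from a list of 71 genes in 7 roles, and 66 of them had a probe set with their symbol alone. Of these 0 rose, 2 fell and 64 did not pass the test, or 2 called of 66, where 1.9% of all genes were. At an unadjusted p under 0.05 there were 11 of 66, where 15.7% of all genes were. The median log2 fold change was 0.022, against 0.010 over all genes. The 2 that fell were integrin genes of the 11 measured partners of the urokinase receptor, the proteins through which a receptor without a cytoplasmic tail is known to signal.

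ITGA3, the alpha-3 chain of a laminin-binding integrin, had levels of 8.40, 8.47 and 8.45 on the S153E-RKIP arrays, against 8.99, 8.93 and 8.76 on the control arrays. The groups were apart on its only probe set. It fell by 0.45 (SE 0.071, adjusted p = 0.0184). The call was lost without any of 5 arrays, with an adjusted p of 0.104 without control replicate 1 and 0.0629, 0.0808, 0.0679 and 0.0977 without S153E-RKIP replicate 1, 2 or 3 or control replicate 2. Without control replicate 3 it held (adjusted p = 0.0236).

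ITGB5 encodes the beta-5 chain, which pairs with the alpha-V chain as a vitronectin receptor. It had levels of 9.19, 9.34 and 9.25 on the S153E-RKIP arrays, against 9.55, 9.64 and 9.58 on the control arrays, again without overlap. It fell by 0.33 (SE 0.062, adjusted p = 0.0406), but its probe set had an adjusted p of 0.0659 in the fit over all probe sets. Leaving out each of the 6 arrays in turn ended the gene call every time, at an adjusted p between 0.0632 and 0.176. It also ended after a repeated quantile normalisation (0.121), after loess removal of the intensity trend (0.0779) and with the replicate number as a block (0.0547). With its 4 probe sets averaged the log2 fold change was -0.21 and did not pass (0.107). Besides the brightest, ITGB5 had probe sets with differences of -0.32 and -0.22 that were not called (adjusted p = 0.201 and 0.227). On both the groups did not overlap, as on 17.1% of all probe sets. The dimmest had a difference of 0.024 at a mean level of 4.30, where signal over background was not measured. ITGAV, the partner chain of ITGB5, had a difference of 0.16 (adjusted p = 0.327) and was named after its value was seen.

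**Figure D5:**
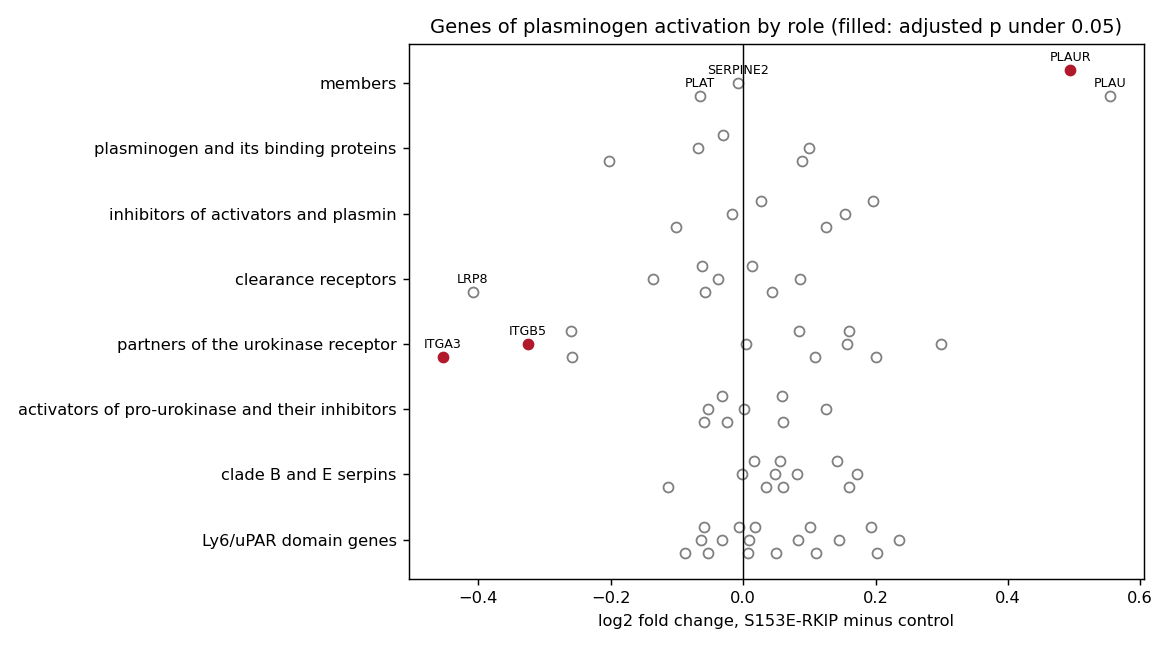
Log2 fold change, S153E-RKIP minus control, of the 4 member genes and of the 66 measured genes of the pathway by role, 1 point a gene; filled red points passed an adjusted p under 0.05 over all genes. PLAUR is the only filled point above 0, and ITGA3 and ITGB5 are the filled points below 0.

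Among plasminogen and its binding proteins 0 of 5 were called. S100A10, a plasminogen receptor subunit on the cell surface, had a difference of -0.20 (adjusted p = 0.159) and PLG, plasminogen itself, one of 0.099 (adjusted p = 0.481) at a level of about 5 where signal over background was not measured. The dimmer probe set of S100A10 fell by 0.37 in the fit over all probe sets (adjusted p = 0.0315). It had levels of 6.96, 7.02 and 7.01 on the S153E-RKIP arrays, against 7.31, 7.43 and 7.37 on the control arrays.

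Clearance receptors take up complexes of an activator with its inhibitor, and 0 of 8 were called. The smallest p was that of LRP8, an apolipoprotein E receptor, with a difference of -0.41 (adjusted p = 0.111), followed by LRP2 with 0.086 (adjusted p = 0.582). Of the 3 probe sets of LRP8 the dimmest fell by 0.71 in the fit over all probe sets (SE 0.12, adjusted p = 0.0293). It had levels of 6.75, 7.11 and 7.20 on the S153E-RKIP arrays, against 7.79, 7.81 and 7.60 on the control arrays. On all 3 probe sets the groups did not overlap, as on 17.1% of all probe sets. Over the 150 probe sets of the pathway list, 3 were called, which is 2%, beside 1.05% of all probe sets.

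None of 6 inhibitors of the activators and of plasmin was called. SERPINI1, or neuroserpin, an inhibitor of tissue plasminogen activator, had a difference of 0.20 (adjusted p = 0.195), with 1 identical deposited value of 6.66 on every control array. A2M, a broad protease trap, had one of 0.15 (adjusted p = 0.596). None of 8 activators of pro-urokinase and their inhibitors was called either, and SPINT1 and SPINT2, which restrain matriptase and hepsin, had differences of 0.13 and -0.059 (adjusted p = 0.447 and 0.660).

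The relatives of the members by protein family were not called. Of 11 clade B and E serpins 9 had a difference above 0, as did 53.6% of all genes, and 3 lay above the median level. The smallest p-values were those of SERPINB12 (0.14, adjusted p = 0.338) and SERPINB5, or maspin (0.16, adjusted p = 0.377). Their mean levels, 4.11 and 4.17, lay below the lower quartile of every array, and that quartile was higher on every S153E-RKIP array. Whether such dim signals came from these genes was not tested. Of 17 genes with the domain that gives the urokinase receptor its fold, LYPD6B had a difference of 0.24 (adjusted p = 0.153) and LYPD4 one of 0.19 (adjusted p = 0.228). Their levels lay near 5, below the median of all genes.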

How the data were processed

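The deposited values are on a log2 scale, 1 per probe set and array, and the submitters' processing notes name RMA without its version. RNA (1 µg) was labelled with a whole-transcript kit per the labels' protocols, on an array of 3' design. The values were used as deposited. The table holds 54675 probe sets, and 62 control probe sets were left out. Symbols came from the platform annotation. Each probe set was fitted in limma 3.58.1 under R 4.3.3 (lmFit, eBayes, two-sided), with Benjamini-Hochberg adjustment over 54613 probe sets, and again for 19775 genes, each read by the probe set with 1 symbol and the highest mean. A call is an adjusted p under 0.05. The fits were tested on simulated data with 50 changed features of each size. Of the probe sets 12 were called at 1.3-fold, 30 at 1.5-fold and 46 at 2-fold, and of the genes 23, 39 and 49. A change of any of these sizes can thus go uncalled, the smaller ones more often. The changed features were drawn at random, and PLAU scattered more than most bright probe sets. Precision is limited by the number of arrays, and the median SE of a log2 fold change was 0.077 over probe sets. Array medians ran from 5.60 to 5.62 on the control arrays and from 5.63 to 5.67 on the S153E-RKIP arrays. The lower quartile was higher and the upper quartile lower on every S153E-RKIP array than on any control array. The members and lists were chosen with earlier results of these data known. Named genes are the members, PEBP1 and HMGA2, called genes of the lists, the 2 with the smallest p of each role, and the 3 closest profiles of each member. Promoter windows are RefSeq's, build GRCh38.p14, and all 4 measured members were looked up. The alternatives were other normalisations, variance models, dim-probe filters, probe set choices, a stricter threshold, the replicate number as a block, and leaving out 1 array at a time. Figures were drawn with matplotlib 3.10.9.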

Additional observations from a re-analysis of the deposited data

How the results depend on the processing

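The count of called member probe sets was 2 and that of member genes 1 under the 3 normalisations, both other variance models and both dim filters, always PLAUR, and all were 0 at an adjusted p under 0.01, as was the count of pathway genes. With each array left out in turn the counts ran from 0 to 2 for member probe sets and for member genes and from 0 to 1 for pathway genes, the highest for member genes without S153E-RKIP replicate 1, where PLAU passed too. With a replicate block 4 member probe sets and 2 member genes were called, since PLAU passed (adjusted p = 0.0136 for the gene), and 1 pathway gene. The replicate numbers are not known to pair the samples. The deviations of same-numbered arrays correlated at 0.13, 0.26 and -0.044, and those of differently numbered arrays at -0.27 to 0.13. The pathway count was 2 in the report, 1 after quantile normalisation again and after loess removal of the intensity trend, 6 with eBayes trend and robust estimation, 4 with only genes above the median level and 4 with probe sets averaged by gene. The cause was not tested. Over all genes 376 were called, against 600 with trend and robust estimation and 124 without control replicate 1, and 574 probe sets, against 939 and 221.

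The direction turned only for genes near 0. For SERPINE2 the log2 fold change of the brighter probe set was 0.037 after quantile normalisation again, 0.030 after loess removal, 0.0011 without S153E-RKIP replicate 2 and 0.040 without control replicate 2. As a gene it was 0.039, 0.029, 0.0011 and 0.040 under the same alternatives, and 0.0075 with its probe sets averaged. For the dimmer probe set it was -0.021, -0.014 and -0.023 after quantile normalisation again, equal medians and loess removal, and -0.046 without control replicate 3. With each array left out in turn the values ran from -0.059 to 0.040 for SERPINE2 by the brighter probe set, from -0.046 to 0.089 by the dimmer one and from -0.17 to 0.044 for PLAT. For PLAT it was 0.044 without S153E-RKIP replicate 1 and 0.012 without control replicate 2. PLAU and PLAUR stayed above 0 and ITGA3 and ITGB5 below 0 in all alternatives run.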

Other observations

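Further partners of the urokinase receptor, chosen after their values were seen, lay below control without passing the test in the fits of the report. The partners did not share this direction. Of the 11 measured, 7 had a difference above 0 and 4 below 0 in the gene fit, with a median of 0.084. The highest was FPR3 at 0.30 (limma adjusted p = 0.220), at a level of 4.32, below the median of all genes. EGFR, the EGF receptor, had 9 probe sets, and on the brightest it had levels of 11.19, 11.25 and 11.30 on the S153E-RKIP arrays, against 11.60, 11.47 and 11.44 on the control arrays. The groups did not overlap, and the log2 difference was -0.26 (SE 0.069, limma adjusted p = 0.161). On 3 of its 9 probe sets the groups did not overlap, where 17.1% of all probe sets did not. CAV1, the caveolar coat protein, had log2 differences of -0.26 and -0.32 on its 2 probe sets (adjusted p = 0.116 and 0.0532), without overlap on either. In the gene fit CAV1 had an adjusted p of 0.0685, and it passed with both dim filters, with eBayes trend and robust estimation and with probe sets averaged. EGFR passed with trend and robust estimation and when dimmer genes, below the median, were left out. S100A10 and LRP8 passed with trend and robust estimation and with probe sets averaged.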
